A study of Arabidopsis thaliana with 12 samples.

Results

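The genes described here are the 5 pseudo-response regulators of the Arabidopsis circadian clock, PRR9 (AT2G46790), PRR7 (AT5G02810), PRR5 (AT5G24470), PRR3 (AT5G60100) and TOC1 (AT5G61380), and the 4 members of the LNK family, LNK1 (AT5G64170), LNK2 (AT3G54500), LNK3 (AT3G12320) and LNK4 (AT5G06980). They were chosen by gene identifier and family, without use of their values, and are 9 of the 25835 genes listed in at least 1 library. All 9 were listed in each of the 12 libraries.

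The study compared wild-type Arabidopsis seedlings with seedlings labelled eif4e mutant. eIF4E is the translation initiation factor that binds the cap of an mRNA, and the series' title joins it to flowering and to the circadian rhythm. Both genotypes were of the Columbia ecotype, raised at 22 °C in long days with light for 16 h and dark for 8 h. Whole seedlings 9 days old were frozen at zeitgeber time (ZT) 16 h, the end of the light period. From each genotype, poly(A) RNA was sequenced from total RNA (the transcriptome) and from immunopurified ribosomes (the translatome), with 3 replicates in each of the 4 groups. The mutant allele and the ribosome tag, and whether the wild type carries that tag, are not stated in the labels. Nor do the labels say that replicates were grown or harvested separately, so a p-value measures the spread between these samples, which may be technical. A single time of day was sampled, so a level cannot be told apart from the phase of a daily rhythm.

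The pseudo-response regulators are transcriptional repressors with a receiver-like domain and a DNA-binding CCT motif. Their mRNAs peak one after the other through the day, with PRR9 in the morning, then PRR7 and PRR5, and PRR3 and TOC1 towards dusk, and the proteins repress the morning genes CCA1 and LHY. The LNK proteins have no known DNA-binding domain and act as coactivators with the MYB factors RVE8 and RVE4 on the promoters of evening genes, among them PRR5 and TOC1.

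Counts of listed genes ran from 17058704 to 24673644 per library. Levels are given as FPKM, which are fragments scaled by gene length and library size, and changes as log2 values from edgeR's quasi-likelihood test with an adjusted p, fitted over the 19170 genes whose mean reached 1 FPKM. EIF4E1 (AT4G18040), named by the mutant label, stood at 45.8, 44.0 and 44.2 FPKM in total wild type and at 8.28, 24.2 and 8.29 FPKM in total mutant replicates 1, 2 and 3. Total mutant replicate 2 thus lay between the genotypes. In ribosome-bound mRNA EIF4E1 ran from 71.8 to 92.9 FPKM in wild type and from 11.6 to 13.9 FPKM in the mutant, without such a library. Each total mRNA comparison below was repeated without total mutant replicate 2, and none of the 6 tested clock genes gained or lost a call.

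The order of levels was led by the late-phased regulators in every group. In total wild type mRNA the mean level was 57.9 FPKM for TOC1, 13.4 for PRR3, 5.77 for PRR5, 4.61 for LNK2, 3.05 for PRR7, 2.99 for LNK1, 0.830 for LNK4, 0.768 for LNK3 and 0.228 for PRR9. TOC1, PRR3 and PRR5 held the first 3 places in all 4 groups, and in each group the libraries of neighbours among these 3 did not overlap. Of the later neighbours in total wild type, PRR7 with LNK1 and LNK4 with LNK3 overlapped. PRR9, the morning member, was the lowest in every group and did not overlap with the gene above it.

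TOC1 made up 72.0% ± 2.06 (SD, n = 3) of the summed FPKM of the 5 pseudo-response regulators in total wild type and 71.6% ± 0.704 in total mutant mRNA. On ribosomes its share was 62.0% ± 1.25 in wild type and 60.2% ± 1.05 in the mutant. PRR3 made up 16.7% ± 1.84 and 14.9% ± 0.661 of total mRNA, and 28.1% ± 0.215 and 26.5% ± 1.77 of ribosome-bound mRNA, in the same order. The family's mRNA thus held less TOC1 and more PRR3 on ribosomes than in total mRNA, with no overlap of libraries between the kinds in either genotype. Among all tested genes TOC1 stood at the percentile 88.0 ± 0.881 of total wild type mRNA and 77.9 ± 0.746 of ribosome-bound wild type mRNA.

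**Figure D1:**
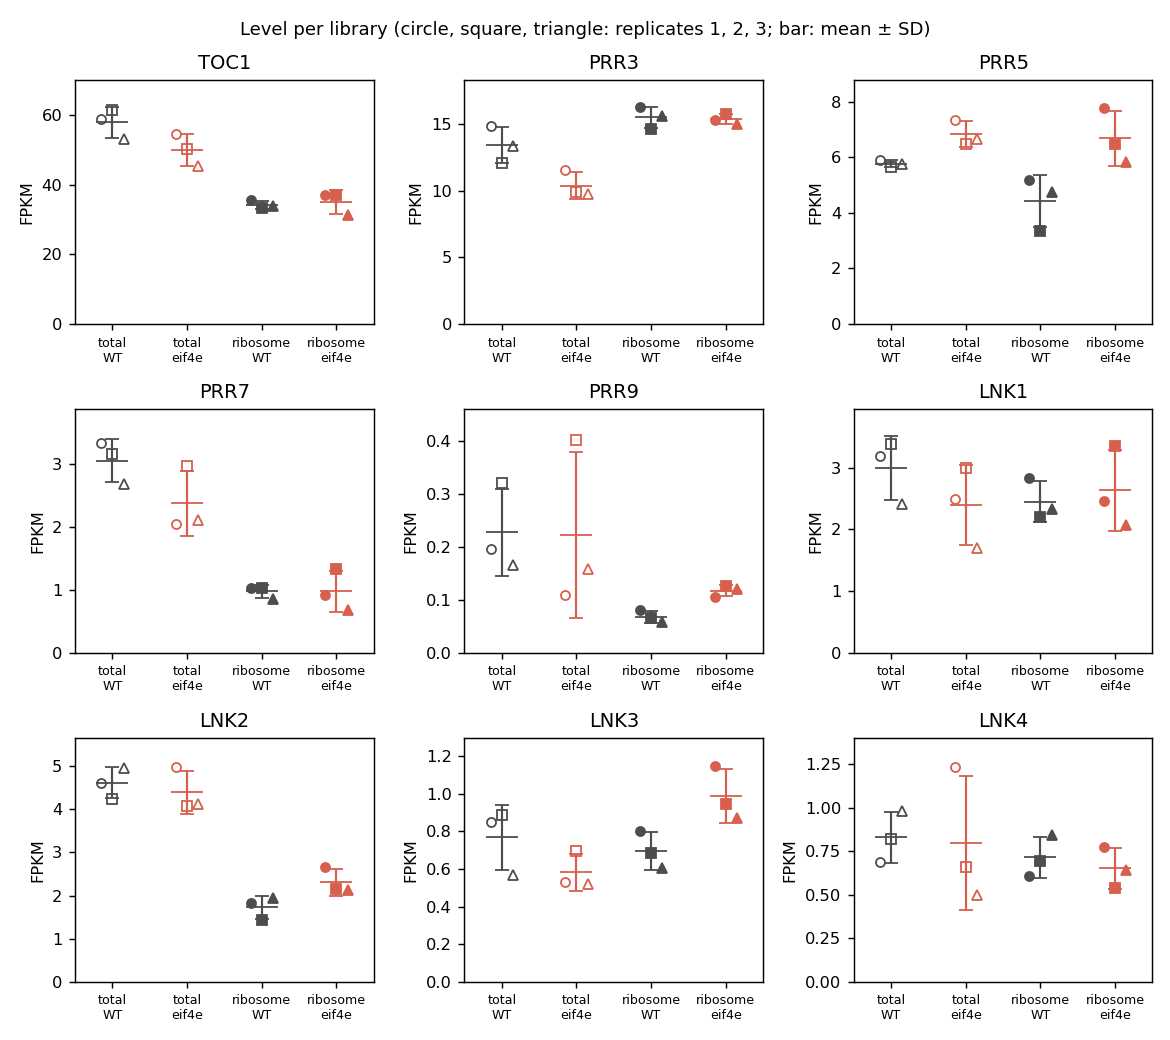
FPKM of each of the 9 genes (y axis, linear and starting at 0, a separate scale for each gene) in the 4 groups (x axis). Symbols are single libraries and bars the mean ± SD of 3 libraries. TOC1 lies between 31.2 and 61.6 FPKM and PRR9 at no more than 0.402 FPKM.

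Mean levels over the 12 libraries were 44.3 FPKM for TOC1, 13.7 for PRR3, 5.93 for PRR5, 3.26 for LNK2, 2.62 for LNK1 and 1.85 for PRR7, so 6 of the 9 genes passed the filter for testing. LNK3 at 0.758 FPKM, LNK4 at 0.749 and PRR9 at 0.159 did not. Their counts per library ran from 13 to 29, from 14 to 34 and from 2 to 13, and a test on them was made only in a fit without the filter.

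PRR5 was the regulator with the clearest difference between genotypes. Its protein represses CCA1 and LHY in the afternoon, and both PRR5 and TOC1 are degraded through the F-box protein ZTL. On ribosomes PRR5 stood at 5.17, 3.36 and 4.74 FPKM in wild type replicates 1, 2 and 3 and at 7.78, 6.47 and 5.82 FPKM in the mutant. Every mutant library was higher than every wild type library, and the mutant was higher in 3 of 3 number-matched pairs. The log2 change was 0.65 ± 0.15 (SE, 95% interval 0.33 to 0.97, adjusted p = 0.0097), or 1.57-fold. The call was lost without replicate 1 of all groups (0.65, adjusted p = 0.105) and when the fit held the ribosome-bound libraries alone (0.64, adjusted p = 0.0501).

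In total mRNA PRR5 stood at 5.91, 5.65 and 5.77 FPKM in wild type libraries and at 7.35, 6.49 and 6.66 FPKM in mutant ones. The groups again did not overlap, with the mutant higher in 3 of 3 pairs. The log2 change was 0.37 ± 0.14 (95% interval 0.06 to 0.69, adjusted p = 0.0977), which did not pass the test. With the replicate number as a block it was 0.37 and passed (adjusted p = 0.0223), as it did with the total libraries alone (0.36, adjusted p = 0.0269) and without ribosome-bound wild type replicate 2 (0.37, adjusted p = 0.0358). Without total mutant replicate 2 it was 0.41 (adjusted p = 0.124). The change on ribosomes exceeded that in total mRNA by 0.27 ± 0.21 (95% interval -0.18 to 0.72, adjusted p = 0.526), so the data do not show that PRR5 differed between the kinds of mRNA.

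LNK2 was the other gene that passed between genotypes. LNK2 and LNK1 are the best studied coactivators of the family, and plants without both have a long period. On ribosomes LNK2 stood at 1.82, 1.43 and 1.93 FPKM in wild type libraries and at 2.66, 2.14 and 2.12 FPKM in mutant ones. The groups did not overlap, and the mutant was higher in 3 of 3 pairs. The log2 change was 0.47 ± 0.14 (95% interval 0.16 to 0.78, adjusted p = 0.0311), or 1.38-fold, and with the replicate block the adjusted p was 0.0082. The call was lost without ribosome-bound wild type replicate 1 (0.51, adjusted p = 0.0588) or 2 (0.35, adjusted p = 0.119), without ribosome-bound mutant replicate 1 (0.35, adjusted p = 0.117) and with a correction for gene length (0.30, adjusted p = 0.127). It passed with block and length correction together (adjusted p = 0.0473), and over all its alternatives the adjusted p ran from 0.0082 to 0.218. The call was also lost with the ribosome-bound libraries fitted alone (adjusted p = 0.0900), with limma on log2(FPKM + 1) (adjusted p = 0.0771), and without any 1 replicate number in all 4 groups.

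In total mRNA LNK2 stood at 4.62, 4.25 and 4.97 FPKM in wild type libraries and at 4.97, 4.08 and 4.12 FPKM in mutant ones, which overlapped. The log2 change was 0.06 ± 0.13 (95% interval -0.23 to 0.35, adjusted p = 0.780) and was negative with scaling by library size alone (-0.051). The difference between the ribosome-bound and the total change was 0.41 ± 0.19 (95% interval -0.01 to 0.83, adjusted p = 0.265).

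PRR3 had its lowest levels in the total mRNA of the mutant. Its protein binds TOC1 and protects it from degradation through ZTL. Total mRNA held 14.8, 12.1 and 13.4 FPKM of PRR3 in wild type and 11.5, 9.90 and 9.74 FPKM in mutant libraries. The FPKM values did not overlap, whereas the TMM-scaled counts did, and the mutant was lower in 3 of 3 pairs. The log2 change was -0.24 ± 0.08 (95% interval -0.43 to -0.05, adjusted p = 0.0733), short of the threshold. With the replicate block it was -0.24 and passed (adjusted p = 0.0184). It also passed with library-size scaling (-0.35, adjusted p = 0.0207), which moved the median of all genes by -0.11, and without total mutant replicate 1 (-0.33, adjusted p = 0.0295). On ribosomes PRR3 held 16.3, 14.7 and 15.6 FPKM in wild type libraries and 15.3, 15.8 and 15.0 FPKM in mutant ones, with a log2 change of 0.03 (95% interval -0.15 to 0.21, adjusted p = 0.803). The difference between the kinds was 0.27 ± 0.12 (unadjusted p = 0.0424, adjusted p = 0.227 in edgeR's quasi-likelihood test).

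TOC1, the dusk-phased repressor and founding member of the family, did not pass between genotypes. Total mRNA held 59.0, 61.6 and 53.1 FPKM in wild type libraries and 54.5, 50.4 and 45.3 FPKM in mutant ones. These overlapped, with the mutant lower in each of 3 pairs, and the log2 change was -0.08 (95% interval -0.28 to 0.12, adjusted p = 0.554). The pairs compare FPKM, scaled by library size alone, a scaling that put the median change of all tested genes at -0.11 in total mRNA. On ribosomes TOC1 held 35.6, 33.2 and 33.9 FPKM in wild type against 37.0, 37.1 and 31.2 FPKM in mutant libraries, and the log2 change was 0.08 (95% interval -0.12 to 0.28, adjusted p = 0.537). With these intervals, a change of TOC1 larger than 0.28 in either direction lay outside the range of both kinds.

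The level of PRR7, a day-phased repressor that acts together with PRR9, overlapped between genotypes in both kinds. Total mRNA held 3.33, 3.15 and 2.67 FPKM in wild type libraries and 2.05, 2.98 and 2.11 FPKM in mutant ones, and ribosome-bound mRNA 1.03, 1.04 and 0.852 against 0.920, 1.33 and 0.685 FPKM. Its intervals were wide, with a log2 change of -0.23 (95% interval -0.68 to 0.21, adjusted p = 0.444) in total and 0.04 (-0.46 to 0.54, adjusted p = 0.914) in ribosome-bound mRNA. LNK1 overlapped too, with 3.19, 3.37 and 2.41 FPKM in total wild type, 2.49, 2.99 and 1.70 in total mutant, 2.83, 2.19 and 2.33 in ribosome-bound wild type and 2.46, 3.35 and 2.08 in ribosome-bound mutant mRNA. Its log2 changes were -0.20 (95% interval -0.68 to 0.29, adjusted p = 0.569) and 0.14 (-0.35 to 0.63, adjusted p = 0.658). Intervals of this width do not show that PRR7 or LNK1 were alike in the genotypes.

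Of the 6 tested genes 0 were called between genotypes in total mRNA, against 17% of all tested genes. An unadjusted p under 0.05 was reached by 2 of them (PRR5 and PRR3). The replicate block called those 2, against 31.8% of all genes. With limma on log2(FPKM + 1) 1 was called, PRR3 as lower, while 979 of all 19170 genes were higher and 3635 lower. DESeq2 called 0 of the 6, against 3455 of all 19170 genes. On ribosomes 2 of 6 were called, both higher, against 27.3% of all tested genes (15.4% higher and 12% lower). The groups did not overlap in scaled counts for 1 of 6 genes in total and 2 of 6 in ribosome-bound mRNA, against 40.4% and 40.2% of all genes. In each case the count lies near the background or below it. The median log2 change of the 6 was -0.14 in total and 0.11 in ribosome-bound mRNA, against -0.004 and 0.008 over all tested genes.

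The difference between the ribosome-bound and the total change passed for 0 of 6 genes, against 4.03% of all genes. PRR3 alone had an unadjusted p under 0.05, and DESeq2 called 0 of the 6, against 1207 of all 19170 genes. The estimates were positive for all 6 genes and ran from 0.16 for TOC1 to 0.41 for LNK2, with each 95% interval but that of PRR3 spanning 0. With the length correction TOC1 turned to -0.058 and the estimates of the other genes were smaller. They were then 0.03 for PRR7, 0.12 for PRR5, 0.13 for PRR3, 0.13 for LNK1 and 0.18 for LNK2.

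**Figure D2:**
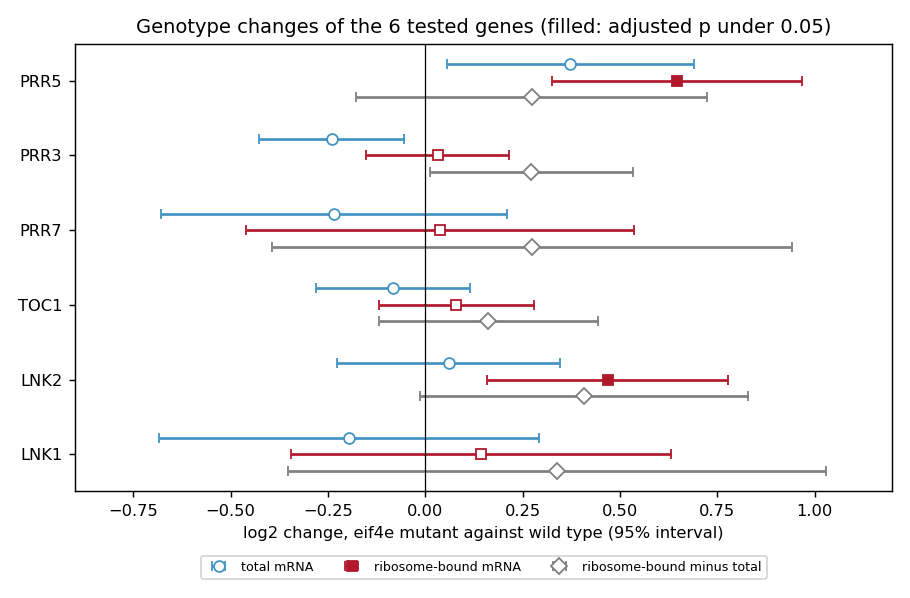
Log2 change between the eif4e mutant and wild type (x axis) of the 6 tested genes (y axis) in total mRNA (circles), in ribosome-bound mRNA (squares) and the difference of the 2 changes (diamonds). Bars are 95% intervals and filled symbols have an adjusted p under 0.05. The filled symbols are those of PRR5 at 0.65 and LNK2 at 0.47 on ribosomes.

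The balance between TOC1 and PRR5 within a library is free of the scaling between libraries. It reuses the values of both genes given above, so it is no separate support for the change of PRR5. None of the ratios compared here was among the planned results. TOC1 was 9.99, 10.9 and 9.21 times the level of PRR5 in total wild type and 7.42, 7.77 and 6.79 times in total mutant mRNA. On ribosomes the ratio was 6.88, 9.89 and 7.14 in wild type and 4.76, 5.73 and 5.36 in the mutant. The mutant ratios were lower than the wild type ratios in both kinds without overlap. An exact two-sided permutation test gave p = 0.1 for each, the smallest that 3 libraries against 3 allow, and 0.171 after Benjamini-Hochberg adjustment over 12 such tests.

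**Figure D3:**
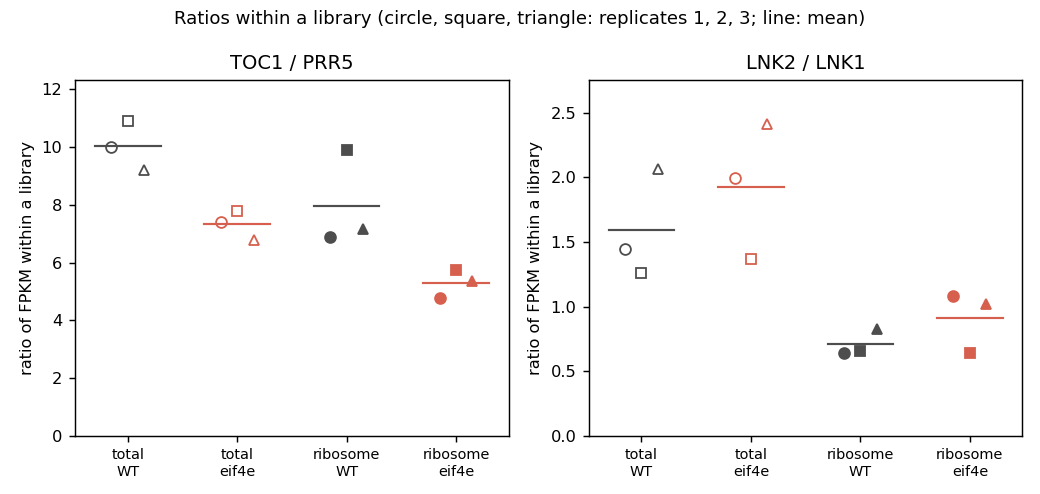
Ratio of FPKM within each library (y axis, linear from 0) of TOC1 to PRR5 and of LNK2 to LNK1 in the 4 groups (x axis). Symbols are libraries and lines the mean of 3. The TOC1 to PRR5 ratio is lower in the mutant in both kinds, and the LNK2 to LNK1 ratio is lower on ribosomes than in total mRNA in both genotypes.

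Some markers of whole tissues also moved between the genotypes. Of all tested genes 10.4% were called higher and 6.54% lower in total mRNA, and 15.4% higher and 12% lower on ribosomes. The 3 mesophyll markers (LHCB1.3, LHCB2.1 and RBCS1A) summed to 10933 to 13080 FPKM in total wild type, 18255 to 21506 in total mutant, 14290 to 18735 in ribosome-bound wild type and 18878 to 24629 in ribosome-bound mutant libraries. Of these 3 markers 3 rose in total and 2 in ribosome-bound mRNA, where the replicate block added LHCB1.3 (0.45, adjusted p = 0.0039). The 13 root markers summed to 169 to 184, 124 to 146, 75.0 to 84.5 and 67.9 to 86.3 FPKM in the same order. Of the 10 root markers tested, 3 fell in total mRNA, and 3 fell and 1 rose on ribosomes. With the replicate block 5 fell and 1 rose in total mRNA, and 6 fell and 1 rose on ribosomes. The block also called more of all 19170 tested genes. It called 3225 higher and 2879 lower in total mRNA, and 4006 higher and 3908 lower on ribosomes. The 3 xylem markers summed to 15.2 to 20.4, 9.65 to 13.1, 21.2 to 24.7 and 14.5 to 15.6 FPKM in the order given above, lower in the mutant without overlap in both kinds. Of the 2 xylem markers tested XCP1, a protease gene of xylem vessels, fell in total (-0.53, adjusted p = 0.0195) and in ribosome-bound mRNA (-0.62, adjusted p = 0.0063), and the block added IRX3 in total mRNA (-0.39, adjusted p = 0.0398). Of 4 guard cell markers FAMA, a transcription factor gene, rose on ribosomes (0.44, adjusted p = 0.0133), where the block added KAT1 (0.26, adjusted p = 0.0214), and 0 passed in total mRNA. Of 3 phloem markers 0 passed in either kind, with 0 at an unadjusted p under 0.05 and 0 by DESeq2. None of the markers of root, mesophyll, phloem, xylem and guard cells was at 0 in all libraries of a group. Their part in the changes of PRR5 and LNK2 was not tested, and in such bulk samples fewer cells of a type and less RNA per cell cannot be told apart.

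Larger differences separated ribosome-bound from total mRNA. Among the 6 tested genes PRR7 was the lowest on wild type ribosomes relative to total mRNA, with a log2 ratio of -1.52 ± 0.21 (adjusted p = 6.4e-05, 0.348-fold). LNK2 followed at -1.30 ± 0.14 (adjusted p = 6.6e-06, 0.405-fold) and TOC1 at -0.64 ± 0.09 (adjusted p = 6.6e-05, 0.641-fold). PRR3 was higher on ribosomes, by 0.33 ± 0.08 (adjusted p = 0.0045, 1.25-fold). LNK1 (-0.17, adjusted p = 0.508) and PRR5 (-0.27, adjusted p = 0.121) did not pass, and PRR5 passed with the replicate block (-0.28, adjusted p = 0.0352) and without ribosome-bound wild type replicate 1 (adjusted p = 0.0430). PRR3 did not pass with library-size scaling (0.21, adjusted p = 0.0570) or without replicate 3 of all groups (adjusted p = 0.0616).

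The mutant gave the same order at its ends. PRR7 stood at -1.25 ± 0.22 (adjusted p = 4.6e-04, 0.421-fold), LNK2 at -0.89 ± 0.14 (adjusted p = 1.7e-04, 0.538-fold) and TOC1 at -0.48 ± 0.09 (adjusted p = 8.1e-04, 0.717-fold). PRR3 was higher on ribosomes by 0.60 ± 0.08 (adjusted p = 1.1e-04, 1.51-fold). PRR5 (0.00, adjusted p = 0.992) and LNK1 (0.17, adjusted p = 0.551) did not pass. In each genotype 4 of 6 genes were called, 1 higher and 3 lower on ribosomes, against 67.5% of all tested genes in wild type (74.8% with the replicate block) and 58.4% in the mutant. Scaled counts did not overlap between the kinds for 5 of 6 genes in wild type and 4 of 6 in the mutant, against 71.4% and 62.7% of all genes. Over all tested genes the calls were balanced, with 33.8% higher and 33.6% lower in wild type and 29.1% and 29.3% in the mutant.

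These ratios depended on the treatment of gene length, and the 6 tested members were among the longer genes. PRR7, LNK2, TOC1, LNK1, PRR5 and PRR3 stood at the length percentiles 90.0, 89.3, 88.5, 86.9, 80.2 and 79.5 of all tested genes. After each library's trend of counts with gene length was taken out, TOC1 did not pass (0.05 in wild type, adjusted p = 0.675, and -0.01 in the mutant, adjusted p = 0.923). PRR7 stayed lower on ribosomes at -0.78 (adjusted p = 0.0108) and -0.75 (adjusted p = 0.0152), and LNK2 at -0.59 (adjusted p = 0.0030) and -0.41 (adjusted p = 0.0223). PRR3 was then higher by 0.79 (adjusted p = 2.8e-05) and 0.92 (adjusted p = 1.7e-05), and LNK1 passed in the mutant (0.60, adjusted p = 0.0480). With the replicate block beside the length correction LNK1 passed in wild type too (0.47, adjusted p = 0.0172), and PRR5 in the mutant (0.33, adjusted p = 0.0145). The directions of PRR7, LNK2 and PRR3 were thus kept in both genotypes with the length correction, at smaller sizes for PRR7 and LNK2 and larger ones for PRR3. Calls over all 19170 tested genes were not balanced with this correction. In wild type 5243 were higher and 3139 lower on ribosomes, and in the mutant 4695 and 3096. The median log2 ratio of all genes was then 0.07 and 0.05. With the block beside it, 6420 were higher and 4016 lower in wild type, and 5781 and 4042 in the mutant.

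**Figure D4:**
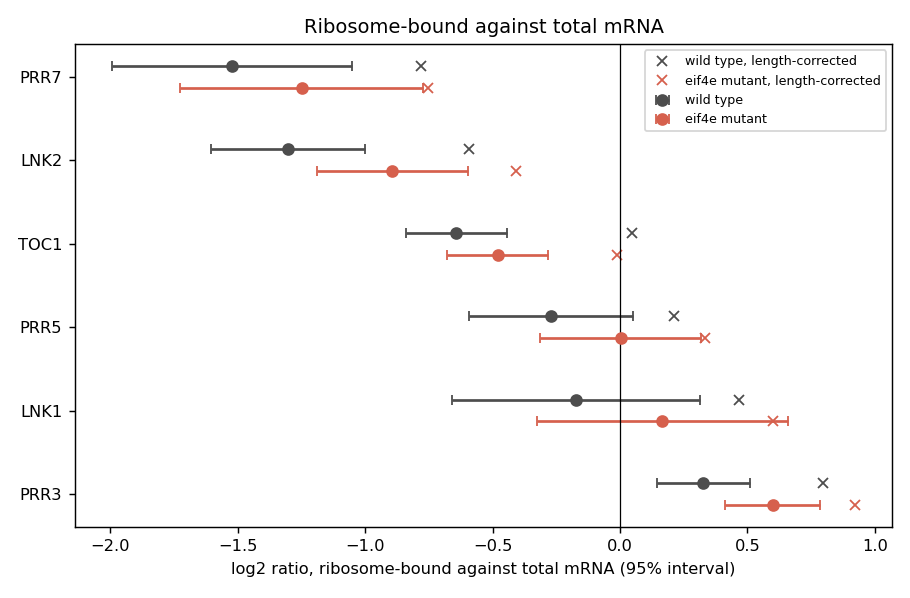
Log2 ratio of ribosome-bound to total mRNA (x axis) of the 6 tested genes (y axis) in wild type (grey) and the eif4e mutant (red). Circles with bars are the estimates with 95% intervals, and crosses the estimates with the length correction, which moved TOC1 to 0.05 and -0.01.

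The balance of LNK2 to LNK1, the closest relatives among the longer LNK genes, was compared within each library. LNK2 was 1.45, 1.26 and 2.07 times the level of LNK1 in total wild type mRNA and 0.642, 0.654 and 0.830 times on wild type ribosomes. In the mutant the ratio was 1.99, 1.37 and 2.42 in total and 1.08, 0.638 and 1.02 in ribosome-bound mRNA. The ratio was lower on ribosomes without overlap in either genotype, but the design cannot reach the threshold (exact two-sided permutation p = 0.1, adjusted 0.171, smallest possible p 0.1). The ratio of TOC1 to PRR3 did not overlap between the kinds either, at 4.35 ± 0.642 (SD, n = 3) in total and 2.21 ± 0.0531 in ribosome-bound wild type mRNA, and 4.82 ± 0.238 and 2.28 ± 0.183 in the mutant (exact permutation p = 0.1 for each, adjusted 0.171).

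The 3 genes under the filter were near the limit of detection. LNK3 and LNK4 form a pair of short relatives of LNK1 and LNK2. LNK3 stood at 0.847, 0.888 and 0.568 FPKM in total wild type, 0.530, 0.696 and 0.518 in total mutant, 0.802, 0.684 and 0.603 in ribosome-bound wild type and 1.15, 0.943 and 0.869 in ribosome-bound mutant mRNA. In FPKM, scaled by library size alone, the mutant was lower in 3 of 3 pairs in total mRNA. It was higher in 3 of 3 pairs on ribosomes, where the groups did not overlap. In the fit without a filter, over 25835 genes, its log2 change was -0.27 ± 0.26 (adjusted p = 0.574) in total and 0.56 ± 0.25 (adjusted p = 0.137) in ribosome-bound mRNA. In the mutant LNK3 was higher on ribosomes than in total mRNA by 0.83 ± 0.26 (adjusted p = 0.0191).

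LNK4 stood at 0.688, 0.823 and 0.980 FPKM in total wild type, 1.23, 0.661 and 0.496 in total mutant, 0.606, 0.696 and 0.843 in ribosome-bound wild type and 0.775, 0.537 and 0.644 in ribosome-bound mutant mRNA. The groups overlapped, and total mutant replicate 1 had the highest value of the 12 libraries. No comparison of LNK4 passed, with log2 changes of 0.08 (adjusted p = 0.914) and -0.06 (adjusted p = 0.953) between genotypes. PRR9 was present at 0.166 to 0.321 FPKM in total wild type, 0.109 to 0.402 in total mutant, 0.0574 to 0.0802 in ribosome-bound wild type and 0.106 to 0.126 in ribosome-bound mutant mRNA. It was lower on ribosomes than in total mRNA in wild type (-1.57 ± 0.55, adjusted p = 0.0277) on counts of 2 or 3 per ribosome-bound library. Between genotypes PRR9 did not pass (0.08, adjusted p = 0.951 in total and 0.83, adjusted p = 0.379 on ribosomes), with 95% intervals of -0.91 to 1.07 and -0.49 to 2.16.

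The gene spans of the 5 pseudo-response regulators overlapped no other gene in the RefSeq annotation, while those of the LNK genes did. LNK1 overlapped AT5G64160, which stood at 13.5 to 40.3 FPKM and did not pass between genotypes (0.13 in total, adjusted p = 0.461, and -0.10 on ribosomes, adjusted p = 0.499). LNK3 overlapped AT3G12340, at 2.24 to 4.32 FPKM, which rose on ribosomes (0.47, adjusted p = 0.0088). LNK2 overlapped AT3G54490, at no more than 0.146 FPKM, and the noncoding gene AT3G08405, for which no level was available. LNK4 overlapped AT5G06990, at 0.137 to 2.24 FPKM. The library kit marks the strand, but no source used here says whether the counting used it. Reads of LNK1, LNK2, LNK3 and LNK4 thus cannot be told apart from those of their neighbours with certainty.

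Genes that act with or under these regulators were mostly higher in the mutant where they passed. The background for each list is the share of all tested genes, 10.4% higher and 6.54% lower in total mRNA. On ribosomes it is 15.4% higher and 12% lower. With the replicate block 3225 of all 19170 tested genes rose and 2879 fell in total mRNA. On ribosomes the block gave 4006 higher and 3908 lower. Among the 4 tested MYB genes of the morning (CCA1, LHY, RVE8 and RVE4), 2 rose and 0 fell in total mRNA, LHY by 0.46 ± 0.09 (adjusted p = 0.0066) and RVE4 by 0.57 ± 0.11 (adjusted p = 0.0060). On ribosomes 3 rose, CCA1 by 0.79 ± 0.14 (adjusted p = 0.0031), RVE8 by 0.45 ± 0.10 (adjusted p = 0.0100) and LHY by 0.34 ± 0.09 (adjusted p = 0.0204). CCA1 and LHY are repressed by the pseudo-response regulators and repress evening genes in turn, whereas RVE8 and RVE4 bind the LNK proteins. LHY lost its call on ribosomes without ribosome-bound wild type replicate 2 or ribosome-bound mutant replicate 2 (adjusted p up to 0.0797) and with the length correction (0.14, adjusted p = 0.30). The list's median log2 change was 0.37 in total and 0.40 in ribosome-bound mRNA.

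Of 10 tested genes known as targets of the pseudo-response regulators, a list that shares CCA1, LHY and RVE8 with the morning genes, 4 rose and 0 fell in total mRNA. The replicate block added RVE8 (0.24, adjusted p = 0.0258) and the growth regulator gene PIF4 (0.42, adjusted p = 0.0376). The 4 were RVE1 (0.83 ± 0.22, adjusted p = 0.0287), a MYB gene of clock output, COR27 (0.60 ± 0.10, adjusted p = 0.0023), a night-phased repressor of PRR5 and TOC1, LHY, and CDF1 (0.38 ± 0.10, adjusted p = 0.0304), a repressor of the flowering gene CONSTANS. On ribosomes 6 rose and 0 fell, among them RVE1 (1.19 ± 0.23, adjusted p = 0.0051), CDF2 (0.47 ± 0.11, adjusted p = 0.0101) and CDF3 (0.39 ± 0.13, adjusted p = 0.0488), beside CCA1, LHY and RVE8. CDF3 lost its call without 11 of the 12 libraries in turn (adjusted p up to 0.173), CDF1 in total mRNA without any 1 of 5 libraries (up to 0.104) and RVE1 in total mRNA without any 1 of 4 (up to 0.108). The medians of the list were 0.34 and 0.36.

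The corepressors that bind the pseudo-response regulators and silence their target promoters were higher on the ribosomes of the mutant. Of 6 tested genes 5 rose and 0 fell on ribosomes, against 15.4% and 12% of all tested genes (DESeq2 gave the same counts, and 1 gene was lower at an unadjusted p under 0.05). TPL (AT1G15750) rose by 0.46 ± 0.07 (adjusted p = 0.0025), TPR1 (AT1G80490) by 0.46 ± 0.05 (adjusted p = 7.9e-04), TPR4 (AT3G15880) by 0.40 ± 0.07 (adjusted p = 0.0029), TPR2 (AT3G16830) by 0.38 ± 0.07 (adjusted p = 0.0043) and TPR3 (AT5G27030) by 0.36 ± 0.09 (adjusted p = 0.0176). CHE, a TCP factor that binds TOC1, stood at -0.24 (adjusted p = 0.0759, or 0.0463 with the replicate block). In total mRNA edgeR called 0 of the 6, with 0 at an unadjusted p under 0.05 and 0 by DESeq2, and the changes ran from -0.17 to 0.09. The medians of the list were 0.02 in total and 0.39 in ribosome-bound mRNA. With the length correction 2 of the 5 stayed called on ribosomes, TPL (0.21, adjusted p = 0.0297) and TPR1 (0.23, adjusted p = 0.0357), and 1 of the 6 was called in total mRNA, TPL again (0.19, adjusted p = 0.0396). TPR3 lost its call without ribosome-bound replicate 1 or 2 of either genotype (adjusted p up to 0.0650).

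Among 8 tested genes of the evening complex with GI and the ZTL family, LUX alone rose in total mRNA (0.25 ± 0.08, adjusted p = 0.0470), and it lost the call without any 1 of 10 libraries (adjusted p up to 0.143). LKP2, a relative of ZTL, passed with the replicate block (0.25, adjusted p = 0.0319). LUX is the DNA-binding member of the evening complex, which represses PRR9 and PRR7 at night. On ribosomes 0 rose (3 at an unadjusted p under 0.05, 0 by DESeq2, and with the replicate block LUX and ELF3 at adjusted p = 0.0293 and 0.0212) and 2 fell. These were ELF4 (-0.41 ± 0.06, adjusted p = 0.0023), another member of the complex, and BOA (-0.48 ± 0.07, adjusted p = 0.0023), a close relative of LUX. With the length correction ELF4 did not pass (-0.15, adjusted p = 0.111). ZTL, through which TOC1 and PRR5 are degraded, stood at 0.15 (adjusted p = 0.113) and 0.16 (adjusted p = 0.0712). The medians of the list were 0.06 and 0.18.

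Of 4 splicing regulators whose loss alters the splicing of PRR9 or PRR7 or the clock's period, 2 rose in total mRNA and 3 on ribosomes. PRMT5, an arginine methyltransferase, rose by 0.30 ± 0.07 (adjusted p = 0.0119) in total and by 0.49 ± 0.07 (adjusted p = 0.0013) in ribosome-bound mRNA. In total mRNA PRMT5 lost the call with library-size scaling (0.19, adjusted p = 0.0914), with limma at either pseudocount (adjusted p up to 0.141) and without any 1 replicate number of all groups (adjusted p up to 0.121). SKIP, a spliceosome component, rose by 0.50 ± 0.07 (adjusted p = 0.0011) and 0.41 ± 0.07 (adjusted p = 0.0030). STIPL1 rose on ribosomes by 0.57 ± 0.09 (adjusted p = 0.0028) and passed in total mRNA with the length correction (0.30, adjusted p = 0.0262). LSM5 stood at -0.21 on ribosomes (adjusted p = 0.0563, or 0.0377 with the replicate block). The medians of this list were 0.27 and 0.45. Over all tested genes 10.4% rose and 6.54% fell in total mRNA, and 15.4% rose and 12% fell on ribosomes. Without replicate 1 of all groups, 1 of the 8 genes of these lists called in total mRNA and 0 of the 16 called on ribosomes kept the call. Without replicate 2 the numbers were 5 and 12, and without replicate 3 they were 3 and 13.

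The 9 genes varied in different ways over the 12 libraries. PRR7 and TOC1 had a Pearson correlation of 0.96 on the log2(FPKM + 1) scale, TOC1 and LNK2 of 0.92 and PRR7 and LNK2 of 0.87. All 3 genes were lower on ribosomes than in total mRNA, and the correlations of their deviations from the group means were 0.50, 0.31 and -0.39 in the same order. Within groups the highest values joined PRR5 with LNK2 (0.83), PRR7 with LNK1 (0.82) and TOC1 with LNK1 (0.80). The libraries share a group, a number and a depth, so these values are a description.

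Among 6746 genes with a symbol and a mean of at least 5 FPKM, those most like PRR5 over the 12 libraries were JAC1 (r = 0.948), which serves the movement of chloroplasts, the deoxyribonucleoside kinase gene dNK (0.941) and FLN2 (0.927), of the plastid transcription machinery. Most like PRR3 were the kinase gene GRIK1 (0.963), the retromer gene VPS26A (0.959) and the B-box gene BBX13 (0.955). TOC1 was closest to the transporter genes ABCC8 (0.988) and ABCC2 (0.987) and to the disease resistance gene RPS6 (AT5G46470, 0.985). PRR7 was closest to the GRAS gene SCL14 (0.992), the xylulose kinase gene XK-2 (0.991) and the protease gene APA1 (0.985), and LNK2 to ATATH8 (0.993), EDD1 (0.991) and the retinoblastoma-related gene RBR1 (0.991). LNK1 had less close matches, with HSPRO2 (0.911), the nitrilase gene NIT4 (0.836) and the ethylene receptor gene ERS1 (0.827). Each match is among the highest of 6746 correlations, and the differences between groups enter these values. No correlation within groups was computed for these genes, so likeness beyond the group differences was not tested.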

How the data were processed

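RNA of 12 seedling libraries was sequenced with a stranded poly(A) kit, per the labels' protocols, and, per the submitters' processing notes, aligned to TAIR10 with TopHat2 2.0.11. The deposited tables give a raw read count per gene, and the authors' FPKM, which divides that count by gene length and library total. Neither the counting program nor its strand setting is given in the sources used here.

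Where a table lacks a gene its count was set to 0 (3308 genes, highest count elsewhere 51). The 19170 genes whose mean reached 1 FPKM were tested with edgeR 4.0.16 in R 4.3.3 (TMM scaling, quasi-likelihood, 4 group means, 8 residual degrees of freedom, common dispersion 0.0185), with Benjamini-Hochberg adjustment within a contrast, two-sided tests and a threshold of 0.05. DESeq2 1.42.0, limma 3.58.1 on log2(FPKM + 1), other scalings and filters, a replicate block, a gene-length offset and leave-outs were alternatives. The tests were checked on simulated counts, drawn with a single dispersion and no effect of the replicate number. That check therefore does not cover the pairing of samples described below. Symbols came from the RefSeq table of TAIR10.1, used for names and overlaps only. RVE3, RVE5, RVE6, CDF5 and COR28 were left out because that table does not pair the symbols with the identifiers used.

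Counts of replicate libraries differed beyond sampling noise, with a chi-square of 7.05 to 29.1 per degree of freedom. Each library was treated as 1 replicate, but this spread does not show that the samples were grown or harvested separately. Libraries with the same number deviated together from their group means in 18 of 18 pairs (r 0.186 to 0.795). The best match in another group had the same number in 33 of 36 cases. Some unmatched pairs also correlated, such as total mutant replicate 1 with ribosome-bound wild type replicate 3 (r 0.299). The numbers thus mostly pair the samples. The main fit does not use this pairing, and the block is printed where it changes a call. Named genes were all 9 genes, EIF4E1, pathway genes that passed between genotypes, and the 3 genes most like each tested one. The genes and lists were chosen with earlier results of these data known.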

Additional observations from a re-analysis of the deposited data

Results flagged for a closer look

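The genotype change on ribosomes differed from that in total mRNA for 6 genes of the pathway lists, by edgeR's test of the difference itself. They are named because they passed. These were 4 of 6 tested corepressor genes, 1 of 8 evening genes and 1 of 10 targets of the pseudo-response regulators. Of the morning and splicing lists, with 4 tested genes each, 0 were called. Over all tested genes the share called was 4.03%. The difference of the log2 changes was -0.606 (adjusted p = 0.0351) for COR27 and -0.395 (adjusted p = 0.0379) for ELF4. For both the genotype change was lower on ribosomes than in total mRNA. For the corepressor genes the difference was 0.421 (adjusted p = 0.0173) for TPR1, 0.471 (adjusted p = 0.0283) for TPR2, 0.525 (adjusted p = 0.0473) for TPR3 and 0.389 (adjusted p = 0.0430) for TPR4. Their genotype change was higher on ribosomes than in total mRNA. These values compare changes, not the levels of the kinds of mRNA. Each of these calls was lost in at least 4 of 12 fits that left out 1 library, with an adjusted p of up to 0.0938 for COR27, 0.102 for ELF4, 0.0618 for TPR1, 0.0882 for TPR2, 0.120 for TPR3 and 0.112 for TPR4. With the length correction all 6 were lost, at -0.50, -0.08, 0.08, 0.13, 0.18 and 0.004 in the order COR27, ELF4, TPR1, TPR2, TPR3 and TPR4.

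LNK3 moved down in each of 3 number-matched pairs in total mRNA (FPKM ratios of mutant to wild type of 0.626, 0.784 and 0.911) and up in each of 3 on ribosomes (1.43, 1.38 and 1.44). These FPKM are scaled by library size alone, a scaling that put the median log2 change of all tested genes at -0.11 in total mRNA. The difference of the log2 changes was 0.83 ± 0.36 in the fit without a filter (95% interval 0.04 to 1.62, unadjusted p = 0.0408, adjusted p = 0.297), which did not pass.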

How the results depend on the processing

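The results followed over the alternatives were single genes and the TOC1 to PRR5 ratio. Counts of called members are not in this tally and are given below. Of the values, 1394 kept direction and side of the threshold, 216 lost a call, 18 gained one and 46 turned sign. The ratio has no threshold and counted as kept when it moved by less than the SD of its libraries. All 46 sign changes were in members whose log2 value was not called or, for TOC1 on wild type ribosomes, was lost with the length correction. The replicate block called PRR5 and PRR3 in total mRNA (2 members against 0) and PRR5 between the kinds in wild type, and changed no other call of a member. Set beside the length correction it added LNK1 in wild type and PRR5 in the mutant between the kinds, and LNK2 on ribosomes. In the pathway lists it ended no call and added RVE8, PIF4 and LKP2 in total mRNA, ELF3, LUX, CHE and LSM5 on ribosomes, and RVE4 (-0.40, adjusted p = 0.0245) and TPL (0.40, adjusted p = 0.0240) for the difference of changes.

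The count of members called in total mRNA was 1 with library-size scaling, with limma at a pseudocount of 0.1 or 1 and with the total libraries alone, 2 with the block with or without length correction, and 0 to 1 in the leave-outs. On ribosomes it was 1 with limma at either pseudocount, a minimum of 5 FPKM or the length correction, 0 with the ribosome-bound libraries alone and 0 to 2 in the leave-outs. Between the kinds it was 2 in each genotype at a minimum of 5 FPKM, which left 3 members to test, and 3 to 5 in wild type and 4 in the mutant in the leave-outs. The difference of changes called 0 members throughout.

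Values that turned sign are these. In total mRNA LNK2 gave -0.051 with library-size scaling, -0.072 and -0.060 with limma and -0.046 to 0.16 in the leave-outs, and LNK1 gave -0.38 to 0.0068 in the leave-outs. On ribosomes PRR3 gave -0.0031 with library-size scaling, -0.013 and -0.012 with limma, -0.081 with the length correction, -0.080 with block and length correction and -0.0035 to 0.065 in the leave-outs. PRR7 gave -0.034 and -0.0087 with limma, -0.14 with the length correction with or without the block, and -0.22 to 0.24 in the leave-outs. TOC1 gave -0.084 and LNK1 -0.011 with the length correction, -0.083 and -0.013 with the block too, and LNK1 -0.12 to 0.30 in the leave-outs. The difference of changes of TOC1 was -0.058 with the length correction and -0.057 with the block too. Between the kinds in wild type the length correction turned PRR5 (0.21), TOC1 (0.046) and LNK1 (0.47), with the block too (0.20, 0.048 and 0.47), and LNK1 gave -0.32 to 0.013 in the leave-outs. In the mutant PRR5, at 0.0019, gave -0.042 with library-size scaling, -0.038 and -0.033 with limma, -0.043 at a minimum of 5 FPKM, -8.8e-05 with the block, -0.0040 with the 2 mutant groups alone and -0.12 to 0.078 in the leave-outs, where LNK1 gave -0.032 to 0.35. The cause was not tested.

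Counts over all genes moved by more than 1.5 times as follows. In total mRNA 3254 genes were called, 6104 with the block, 6450 with block and length correction and 472 to 3429 in the leave-outs. On ribosomes 5236 were called, 7914 with the block, 3406 with the length correction, 2710 with the ribosome-bound libraries alone, 12 and 2929 without replicate 1 or 2 of all groups, 3313 and 3140 without ribosome-bound wild type replicate 1 or 2, and 3075 without ribosome-bound mutant replicate 1. For the difference 772 were called, 1207 by DESeq2, 479 without a filter, 1937 with the block, 139 with the length correction, 439 with both and 0 to 1607 in the leave-outs. Between the kinds in wild type 12935 were called and 8382 with the length correction. Library-size scaling shifted the median of all genes by -0.11 in total mRNA and the share of calls that were higher from 61.5% to 25.4%, from 56.2% to 44.3% on ribosomes and from 41.6% to 63.3% for the difference. Depth limits LNK3, LNK4 and PRR9, with at most 34 counts in a library. Alternatives for EIF4E1, the pathway genes and the TOC1 to PRR5 ratio were chosen after seeing the data.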
